A study of Rattus norvegicus with 27 samples.

Results

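The transcripts of 10 genes of peroxide and superoxide defense were followed in medial prefrontal cortex tissue (mPFC) from 27 rats. The genes are the glutathione peroxidases Gpx1, Gpx3 and Gpx4, the superoxide dismutases Sod1 and Sod2, catalase (Cat), and the peroxiredoxins Prdx1, Prdx2, Prdx5 and Prdx6. They were chosen by name, from the rat symbols of the NCBI gene IDs in the count table, and all 10 were found among its 36865 rows. All 10 also passed the filter on low counts, as did 11292 rows in all. Gpx3 was included because it stands on both gene lists that the study tied to the light-dark (LD) test, and those lists were chosen on these same samples. The rats were adult males of the Wistar strain, with no genetic change. Each had passed through repeated anxiety tests, and all were killed at rest, straight from the home cage, in the early part of the active period. The sample labels also name learned helplessness as the treatment of every rat, while the study's methods describe the test battery. There was 1 library per rat, 1 group and no control group, so the measurements are levels, spread between rats and how genes moved together across rats. The anxiety scores of the rats were not used here.

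Superoxide, a by-product of respiration and of oxidases, is turned into hydrogen peroxide by the superoxide dismutases. Catalase, the glutathione peroxidases and the peroxiredoxins then reduce the peroxide, with glutathione or thioredoxin as the electron donor where the enzyme needs one. The brain respires heavily and is rich in oxidizable lipids, and its neurons are known to draw on astrocytes for glutathione precursors. Many genes of this defense carry antioxidant response elements, the sites of the transcription factor Nfe2l2 (also called Nrf2).

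Promoter windows from RefSeq (assembly GRCr8), 250 bases before to 50 after a start site, were held for 9 of the 10 genes, Prdx6 being the one without an entry. The core of the antioxidant response element, TGACNNNGC, was searched on both strands. It was found in 3 of the 11 member windows, those of Sod2, Prdx1 and Prdx5, and in 12.1% of 33469 windows of all genes. In the window of Prdx1 the match began at -135 from the start site, in that of Sod2 at -35 and in that of Prdx5 at -1. The windows of Gpx3 and Cat did not hold these letters. Nor did those of Gpx1, Gpx4, Sod1 and Prdx2, whose counts moved with those of Prdx1 and Prdx5 over all rats. The windows of Prdx1 and Prdx5 are shown because the counts of these genes moved together across rats, those of Sod2 and Gpx3 because theirs did not move with them. Each is written 5′ to 3′ along the gene, with the match in capitals, which in all 3 cases lies on the opposite strand and so reads in reverse complement.
Prdx1, chr5:135383656-135383955, + strand: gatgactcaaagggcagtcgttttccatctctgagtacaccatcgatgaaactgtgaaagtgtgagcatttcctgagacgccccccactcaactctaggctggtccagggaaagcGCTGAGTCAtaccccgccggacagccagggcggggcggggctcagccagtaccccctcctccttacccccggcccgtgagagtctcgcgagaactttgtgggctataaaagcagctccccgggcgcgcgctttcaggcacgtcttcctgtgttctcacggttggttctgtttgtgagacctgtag
Prdx5, chr1:213531978-213532277, - strand: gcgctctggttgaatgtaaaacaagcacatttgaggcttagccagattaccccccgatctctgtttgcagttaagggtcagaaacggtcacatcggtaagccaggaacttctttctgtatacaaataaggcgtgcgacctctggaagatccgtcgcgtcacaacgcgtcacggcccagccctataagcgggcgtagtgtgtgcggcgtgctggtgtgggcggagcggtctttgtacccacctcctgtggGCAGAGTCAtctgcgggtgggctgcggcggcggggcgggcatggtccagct
Sod2, chr1:50050119-50050418, - strand: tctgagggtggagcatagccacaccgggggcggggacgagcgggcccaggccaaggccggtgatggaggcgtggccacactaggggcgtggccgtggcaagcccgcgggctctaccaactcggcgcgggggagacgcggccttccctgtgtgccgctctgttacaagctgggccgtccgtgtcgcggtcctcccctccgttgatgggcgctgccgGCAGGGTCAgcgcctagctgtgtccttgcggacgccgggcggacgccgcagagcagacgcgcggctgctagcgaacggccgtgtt
Gpx3, chr10:39529085-39529384, + strand: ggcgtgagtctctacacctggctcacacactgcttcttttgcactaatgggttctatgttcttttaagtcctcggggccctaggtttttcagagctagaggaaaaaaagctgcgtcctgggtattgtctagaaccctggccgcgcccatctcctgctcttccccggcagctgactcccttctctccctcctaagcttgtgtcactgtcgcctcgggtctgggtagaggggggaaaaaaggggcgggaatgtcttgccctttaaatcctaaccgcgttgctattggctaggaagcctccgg

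The libraries held 4907255 to 12771309 counted reads. Depth went with the number in the library name, as the 16 up to 31 did not exceed 8568317 and the 11 from 32 were at least 9404220. The main relations are therefore also given within these number ranges, but not those of the further pathway genes. Counts were divided by size factors, and the result is called the normalized count. It is not corrected for transcript length, so levels are compared between rats and not between genes. One library stood apart. Rat 3 lay at -3.85 SD on the first principal component of the 11282 other tested genes, and it was highest of all rats in 6 of the 10 genes and in 7 of 8 oligodendrocyte markers. The main relations between genes are therefore also given without it. Rats 12 and 20 held the most 18S ribosomal RNA (Rn18s, 0.228% and 0.195% of counts), and results that changed without them are given as such. Marker lists of 12 cell types and states described the tissue. All 6 excitatory neuron, 8 astrocyte and 8 oligodendrocyte markers were detected in every rat, while Sst, Lhfpl3, Hba-a2 and Folr1 were listed at 0 in every rat. In bulk tissue, fewer cells of a type and less RNA per cell cannot be told apart.

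Of the glutathione peroxidases, Gpx1 (gene ID 24404), the cytosolic and mitochondrial enzyme that reduces hydrogen peroxide, had 455 ± 95.8 normalized counts (SD, n = 27). The lowest value was 345 in rat 53, the median 425 and the highest 743 in rat 3, with rat 24 next at 631. Gpx4 (gene ID 29328), which reduces lipid peroxides in membranes and restrains ferroptosis, had 2447 ± 248 (SD, n = 27). It ran from 2096 in rat 22 through a median of 2415 to 3422 in rat 3, and the next rat, 19, had 2796. Rat 3 thus stood well clear of the others in both genes.

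Gpx3 (gene ID 64317), the glutathione peroxidase that is secreted and known chiefly from plasma, had 181 ± 54.9 normalized counts (SD, n = 27). It was lowest at 87.3 in rat 18, had a median of 189, and was highest at 327 in rat 52 and 250 in rat 53. At least 71 reads were counted on it in every rat, and counting alone accounts for 6.26% of its variance. Here rat 3 was not extreme, with 232. The SD of log2(normalized count + 1) was 0.46, which made Gpx3 the most variable of the 10, and 89.8% of genes above a mean count of 10 were less variable.

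Sod1 (gene ID 24786), the copper and zinc enzyme of the cytosol, had 2218 ± 255 normalized counts (SD, n = 27). Its lowest value was 1925 in rat 35, its median 2105 and its highest 2991 in rat 3, followed by rat 19 with 2784. Sod2 (gene ID 24787), the manganese enzyme of the mitochondrial matrix, had 1459 ± 77.8 and ran only from 1289 in rat 32 through 1452 to 1673 in rat 20. Sod2 was the least variable of the 10, with an SD of 0.077 on the log2 scale that only 1.67% of genes undercut. The highest rat exceeded the lowest by 1.30-fold in Sod2, by 1.55-fold in Sod1 and by 3.74-fold in Gpx3.

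Cat (gene ID 24248), the heme enzyme of peroxisomes, had 492 ± 62.4 normalized counts (SD, n = 27), from 366 in rat 15 through a median of 488 to 617 in rat 20. Rat 3, with 404, was among the low rats for this gene.

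Among the peroxiredoxins, Prdx1 (gene ID 117254), a cytosolic enzyme recycled by thioredoxin, had 445 ± 106 normalized counts (SD, n = 27). It ran from 348 in rat 51 through a median of 408 to 870 in rat 3, and the next rat, 9, had 590. Prdx2 (gene ID 29338), the related enzyme known to be abundant in neurons, had 2413 ± 185, from 2190 in rat 22 through 2373 to 3023 in rat 3. Prdx5 (gene ID 113898), found in mitochondria, peroxisomes and cytosol, had 1615 ± 210, from 1284 in rat 52 through 1588 to 2101 in rat 3. Its RefSeq extent overlaps that of Trmt112, a methyltransferase subunit (rho with Prdx5 0.70), and the strandedness of the counting is not given in the sources used here, so its count is uncertain. Prdx6 (gene ID 94167), which also has phospholipase activity and is known from astrocytes, had 840 ± 95.7, from 724 in rat 28 through 817 to 1063 in rat 53. Rat 3 was thus the highest in 3 of the 4 peroxiredoxins, Prdx6 being the exception.

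The spread of all 10 genes exceeded that of counting (dispersion test by chi-square, adjusted p from 6.6e-128 for Prdx5 to 4.63e-13 for Sod2), as did that of 89.8% of the 11730 genes tested. The rows of 13 pseudogenes and copies of Gpx4, Sod2, Prdx1 and Prdx6 held 0 counts in every rat, so no reads had been assigned to them.

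**Figure D1:**
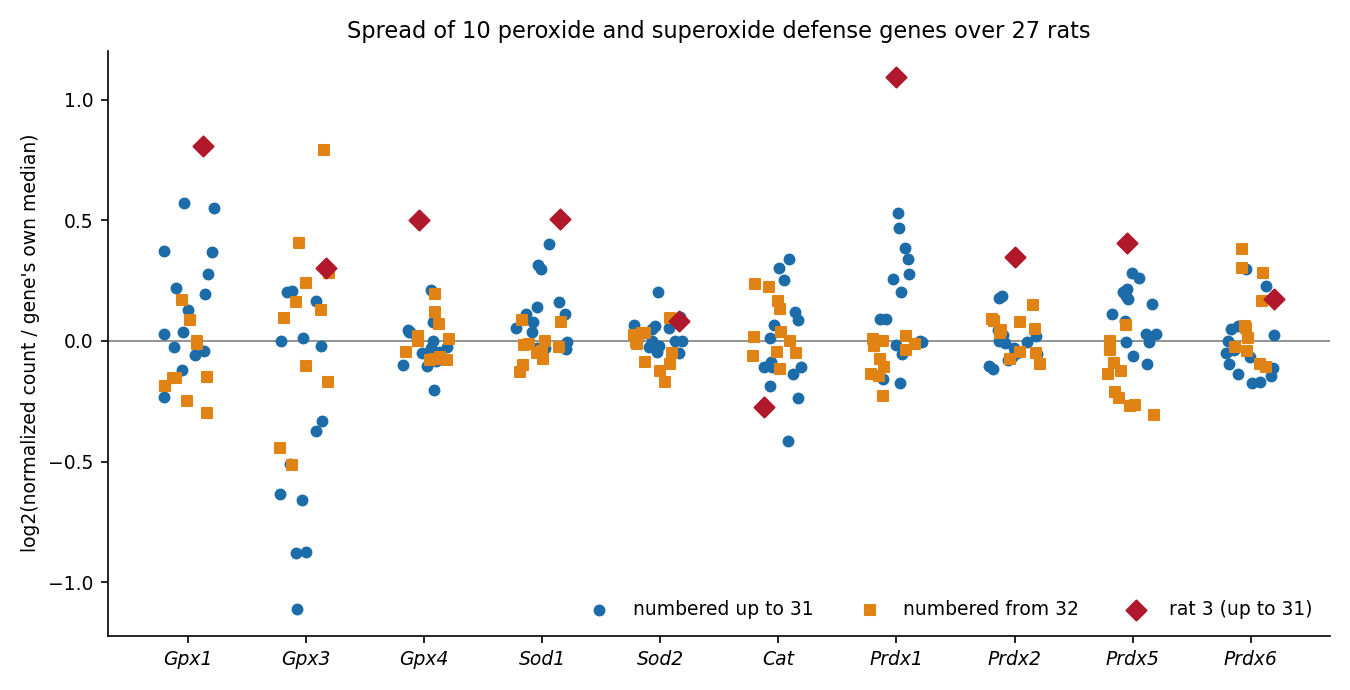
Level of each gene in each rat as log2 of the normalized count over the gene's own median (y axis) for the 10 genes (x axis), 1 point per rat, with libraries numbered up to 31 as circles, from 32 as squares, and rat 3 as a red diamond. Rat 3 is the highest point in Gpx1, Gpx4, Sod1, Prdx1, Prdx2 and Prdx5, Gpx3 has the widest spread (SD 0.46) and Sod2 the narrowest (SD 0.077).

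Among the 10 genes, 6 were joined by the pairs called. Each gene in turn was used as a covariate in edgeR's quasi-likelihood test over all genes, and a pair was called when each gene followed the other at an adjusted p under 0.05. Of 45 pairs, 14 were called, all of them positive and all among Gpx1, Gpx4, Sod1, Prdx1, Prdx2 and Prdx5. Only Gpx1 with Prdx2, of the 15 pairs of these 6 genes, was not called (rho -0.022 over all rats, -0.14 without rat 3, 0.36 up to 31 and -0.25 from 32). With the number range as a further term 15 pairs were called, and Gpx1 with Prdx2 was then among them in the positive direction (Prdx2 by 0.065 ± 0.022 (SE) per SD of Gpx1, adjusted p = 0.0228, and Gpx1 by 0.10 ± 0.040 per SD of Prdx2, adjusted p = 0.0436, beside 34.2% and 31.1% of all genes). These genes, however, were followed by a large part of the transcriptome: 27.2% of the 11291 other genes tested followed Gpx1, 29.7% Gpx4, 35.6% Sod1, 35.5% Prdx1, 26.6% Prdx2 and 26.5% Prdx5. In the fit on Sod1 5 of the 9 other members rose, beside 18.3% of all genes.

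The closest pair was Sod1 and Prdx5 (rho 0.80, r 0.79, n = 27). Prdx5 rose by 0.15 ± 0.022 (SE) on the log2 scale per SD of Sod1 (edgeR adjusted p = 7.95e-06), and rho was 0.67 in the 16 libraries numbered up to 31 and 0.70 in the 11 from 32. Prdx1 and Prdx5 followed with rho 0.76, at 0.80 and 0.45 within the number ranges. Gpx1 had rho 0.67 with Prdx5, 0.63 with Prdx1 and 0.55 with Sod1. These last 3 were seen in the libraries up to 31, at 0.79, 0.73 and 0.67, and not in those from 32, at -0.28, -0.03 and -0.25, where Gpx1 also had rho -0.21 with Gpx4. Whether the slopes differ between the ranges was not tested. Gpx4 and Prdx2 had rho 0.53, at 0.53 and 0.47.

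Without rat 3, 7 pairs were called. They were the 6 pairs among Gpx1, Sod1, Prdx1 and Prdx5, together with Gpx4 and Prdx2, with rho between 0.48 and 0.78 (n = 26). All 7 were also called with every rat in. The other 7 pairs joined Gpx4 or Prdx2 to the other 4 genes and were not called without rat 3. Of these, Prdx1 with Prdx2 had rho 0.16 with and 0.054 without that rat, and Gpx4 with Sod1 had 0.50 and 0.44. Within the libraries from 32, which do not hold rat 3, rho of Gpx4 was 0.75 with Prdx5, 0.57 with Prdx1, 0.28 with Sod1 and -0.21 with Gpx1. The background was lower too, at 10.2% of genes for Gpx1, 19.3% for Sod1, 15.7% for Prdx1, 15.5% for Prdx5, 3.39% for Gpx4 and 9.3% for Prdx2. Leaving out any other single rat left 13 to 15 pairs.

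**Figure D2:**
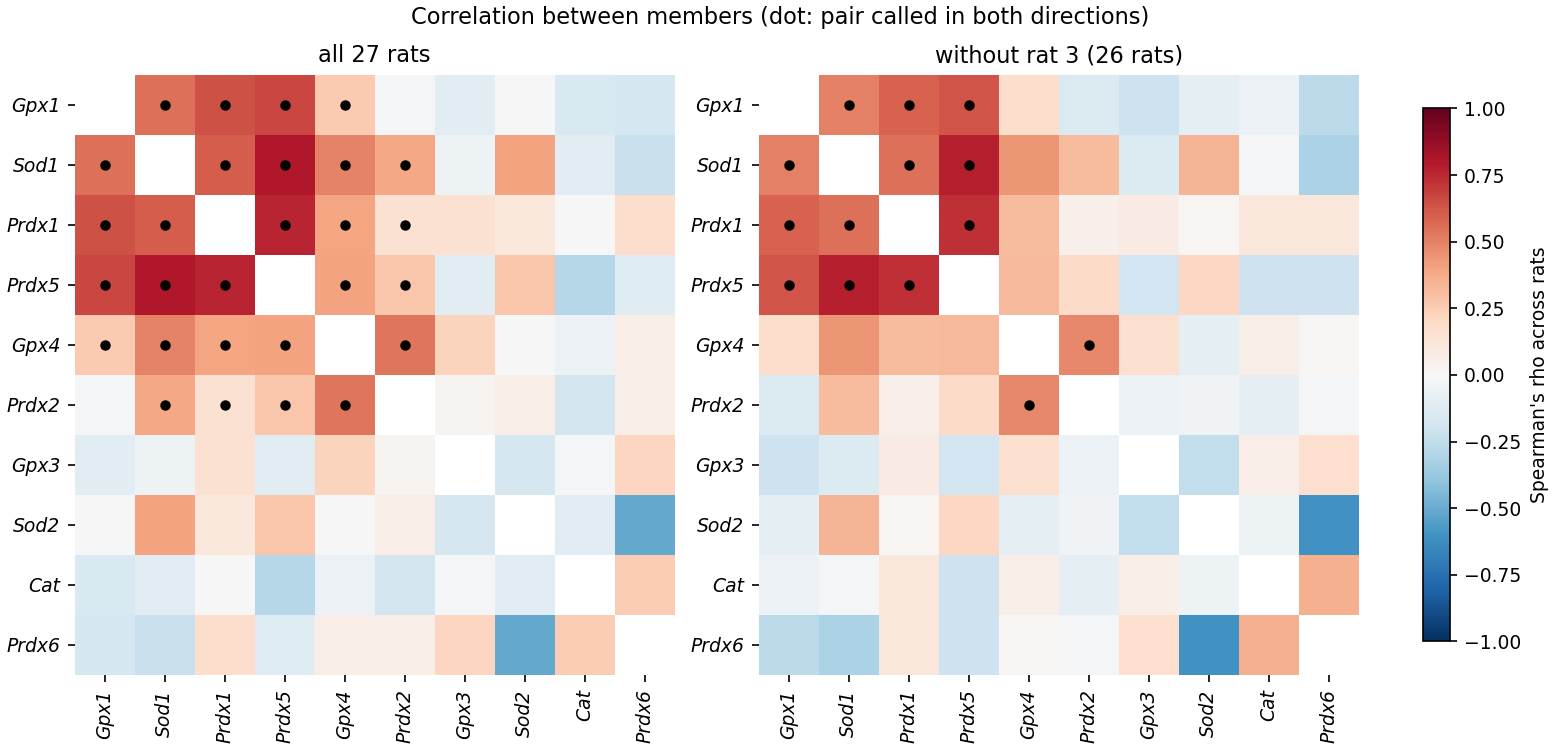
Spearman's rho between the 10 genes (both axes) over all 27 rats (left) and without rat 3 (right), on a colour scale from -1 to 1, with a dot on pairs called in both directions by edgeR. The 14 called pairs fall within the 6 genes at the upper left, 7 of them remain without rat 3, and Gpx3, Sod2, Cat and Prdx6 have none.

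No pair with Gpx3, Sod2, Cat or Prdx6 was called. These 30 pairs had rho from -0.51 to 0.40 (median -0.0027). The lowest was Sod2 with Prdx6, at -0.51 and at -0.60 without rat 3, and the edgeR fits on either gene did not call it. Few genes of any kind followed these 4. The fit on Gpx3 called 0.0354% of genes and that on Sod2 0.0266%, and those on Cat and Prdx6 called 0.0%. At an unadjusted p under 0.05 in these edgeR fits the 4 were not alike. Of 11291 genes, 1539 reached it with Gpx3 and 1975 with Sod2, against 357 with Cat and 419 with Prdx6. Without rat 3 the shares were 0.213% for Gpx3 and 0.0177% for Sod2.

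**Figure D3:**
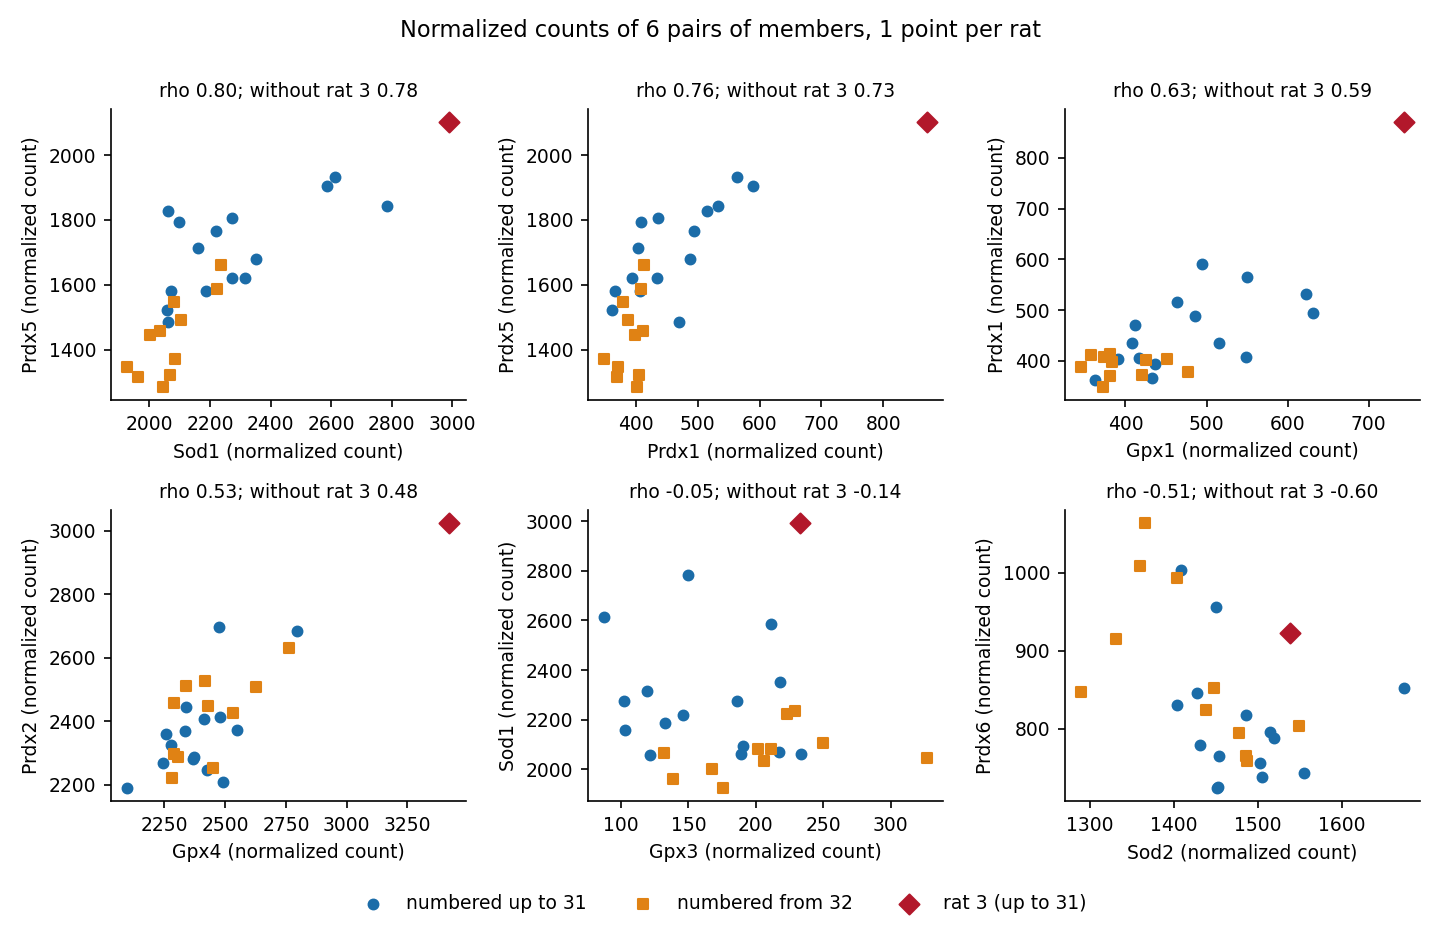
Normalized counts of 6 pairs of members, 1 point per rat, with circles for libraries up to 31, squares for those from 32 and a red diamond for rat 3. The upper 3 pairs and Gpx4 with Prdx2 rise together with and without rat 3, Gpx3 with Sod1 has no trend (rho -0.05), and Sod2 with Prdx6 slopes down (rho -0.51) without being called.

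The same 6 genes followed the main axis of the transcriptome. The first principal component of the 11282 other genes held 22.0% of their variance. Its sign is arbitrary and was set so that an excitatory neuron marker rose with it, which put rat 3 at its negative end. Gpx1, Gpx4, Sod1, Prdx1, Prdx2 and Prdx5 all fell along the component (edgeR), as did 20.4% of all genes, and 40.8% followed it in either direction. The component was computed from nearly all of these genes, so the shares are not independent of it. Within the libraries up to 31 and from 32, rho with the component was -0.87 and -0.073 for Gpx1, -0.84 and -0.34 for Sod1, and -0.86 and -0.43 for Prdx1. It was -0.67 and -0.80 for Gpx4, -0.56 and -0.70 for Prdx2, and -0.86 and -0.81 for Prdx5. The difference between the ranges was not tested. Over all rats the largest change was that of Prdx1, which fell by 0.26 ± 0.023 (SE) on the log2 scale per SD of the component (adjusted p = 5.32e-10, r -0.91, n = 27), and the smallest of the 6 that of Prdx2, which fell by 0.084 ± 0.014 (adjusted p = 1.84e-05). Gpx3 changed by -0.024 ± 0.082 (adjusted p = 0.846). Without rat 3 the order of the components changed, as the first of the other 26 rats matched the second of all rats (absolute rho 0.997) and the second matched the first (absolute rho 0.960). That second component was followed by 22.3% of all genes and by the same 6 members, each lower along it, from Gpx1 (-0.17 ± 0.034 (SE) per SD, adjusted p = 0.000437) to Prdx2 (-0.055 ± 0.015, adjusted p = 0.00679). The first component of the 26 rats was followed by 36.2% of all genes and by other members, Gpx3 (0.20 ± 0.078, adjusted p = 0.0443) and Sod2 (-0.038 ± 0.014, adjusted p = 0.0396). With all rats in and their first component as a further term, 0 of 45 pairs were called, although Gpx1 was then lower where Prdx2 was higher in the fit on Prdx2 alone (-0.17 ± 0.045 (SE) per SD, adjusted p = 0.0216). The shares of all genes called in these fits were 5.04% for Gpx1, 0.0% for Gpx4 (1554 of 11291 at an unadjusted p under 0.05), 3.33% for Sod1, 2.19% for Prdx1, 6.58% for Prdx2 and 4.29% for Prdx5. Without rat 3 and with the first 2 components of the other rats as terms, 1 pair was called, Gpx1 and Prdx2, in the negative direction (Gpx1 by -0.14 ± 0.034 per SD of Prdx2, adjusted p = 0.00655), beside 10.3% of all genes that followed Gpx1 and 11.8% that followed Prdx2.

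Markers of excitatory neurons moved against these genes over all rats. The excitatory neuron score, a mean z score of 6 markers, had rho 0.51 with the component. The sign of the component was set by a marker of this score, and all 6 markers were among the genes it was computed from. That rho is therefore not independent of how the component was made. The score was followed by 27.1% of all genes and by the same 6 members, each lower where the score was higher over all rats. Prdx1 fell by 0.21 ± 0.036 (SE) per SD of the score (adjusted p = 0.000128) and Gpx1 by 0.19 ± 0.039 (adjusted p = 0.000627). Sod1 fell by 0.11 ± 0.021 (adjusted p = 0.00035). Within the libraries up to 31 and from 32, rho with the score was -0.69 and -0.082 for Prdx1, -0.66 and -0.045 for Gpx1, and -0.53 and -0.11 for Sod1. It was -0.44 and -0.045 for Gpx4, and it was negative up to 31 and positive from 32 for Prdx2 (-0.49 and 0.40) and Prdx5 (-0.52 and 0.21). The difference between the ranges was not tested. With the number range as a further term, 5 of the 6 were called and Prdx5 was not (adjusted p = 0.0158 without and 0.0832 with that term), beside 29.3% of all genes. Without rats 12 and 20, 5 of the 6 were called and Prdx2 was not (adjusted p = 0.0401 with and 0.0707 without them), beside 23.6% of all genes. Without rat 3, which had the score -1.66, these 3 were still called (adjusted p = 0.0272, 0.0266 and 0.0146) and Gpx4, Prdx2 and Prdx5 were not, beside 9.51% of all genes. The summed normalized counts of the 6 excitatory markers ranged from 31913 to 41324 in the libraries up to 31 and from 35106 to 46754 in those from 32. Gpx1 also fell with the inhibitory neuron score (0.16 ± 0.044, adjusted p = 0.0434, beside 2.79% of all genes) and Sod1 with the oligodendrocyte precursor score (0.094 ± 0.025, adjusted p = 0.0359, beside 3.52%), and neither call was kept without rat 3 (adjusted p = 0.172 and 0.0646, beside 0.0% and 1.88% of all genes). The call of Gpx1 was also lost without rats 12 and 20 (adjusted p = 0.143), when 0.0% of all genes followed the inhibitory score (1818 of 11289 at an unadjusted p under 0.05). The call of Sod1 was also lost with the number range as a term (adjusted p = 0.0684). With that term Prdx1 rose with the oligodendrocyte score (0.14 ± 0.039, adjusted p = 0.0364, beside 3.93% of all genes), against an adjusted p of 0.22 without it. Without rat 3 the edgeR fit without the term gave an adjusted p of 0.98, and the fit with the term was not run without that rat. In all, 8 of 120 relations of a member with a score were called without the term and 7 with it. The scores called with no member in the fits without the term were followed by 1.04% of genes (astrocyte), 1.73% (oligodendrocyte), 0.523% (microglia and macrophage), 0.0798% (endothelial), 1.31% (mural), 1.91% (meningeal fibroblast), 0.0% (choroid plexus and ependyma), 2.41% (red blood cell) and 0.062% (immediate early). The part of cell composition in the pairs was not tested.

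Of the members, 4 were lower in the libraries numbered from 32, where 18.3% of all genes differed and 9.3% were lower. Prdx5 had 1736 ± 167 normalized counts in the 16 rats up to 31 and 1439 ± 123 in the 11 from 32 (SD), a log2 difference of -0.27 ± 0.052 (SE, edgeR adjusted p = 0.000474). Gpx1 had 494 ± 103 and 397 ± 40.9 (-0.31 ± 0.092, adjusted p = 0.0162). Prdx1 had 483 ± 124 and 390 ± 20.95 (-0.30 ± 0.098, adjusted p = 0.0284), and Sod1 had 2319 ± 282 and 2069 ± 96.0 (-0.16 ± 0.054, adjusted p = 0.0304). The values of the 2 ranges overlapped in all 4 genes, and all 4 were called without rat 3 too, beside 19.2% of all genes. Gpx3 was 165 ± 50.3 and 206 ± 54.5 (0.32 ± 0.15, adjusted p = 0.145). Gpx4 and Prdx2 had log2 differences of -0.017 ± 0.054 and 0.0022 ± 0.043. The methods of the study name a pair of cohorts of male Wistar rats, and the sample labels do not say which rat came from which. Library number, depth and any cohort cannot be told apart here.

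**Figure D4:**
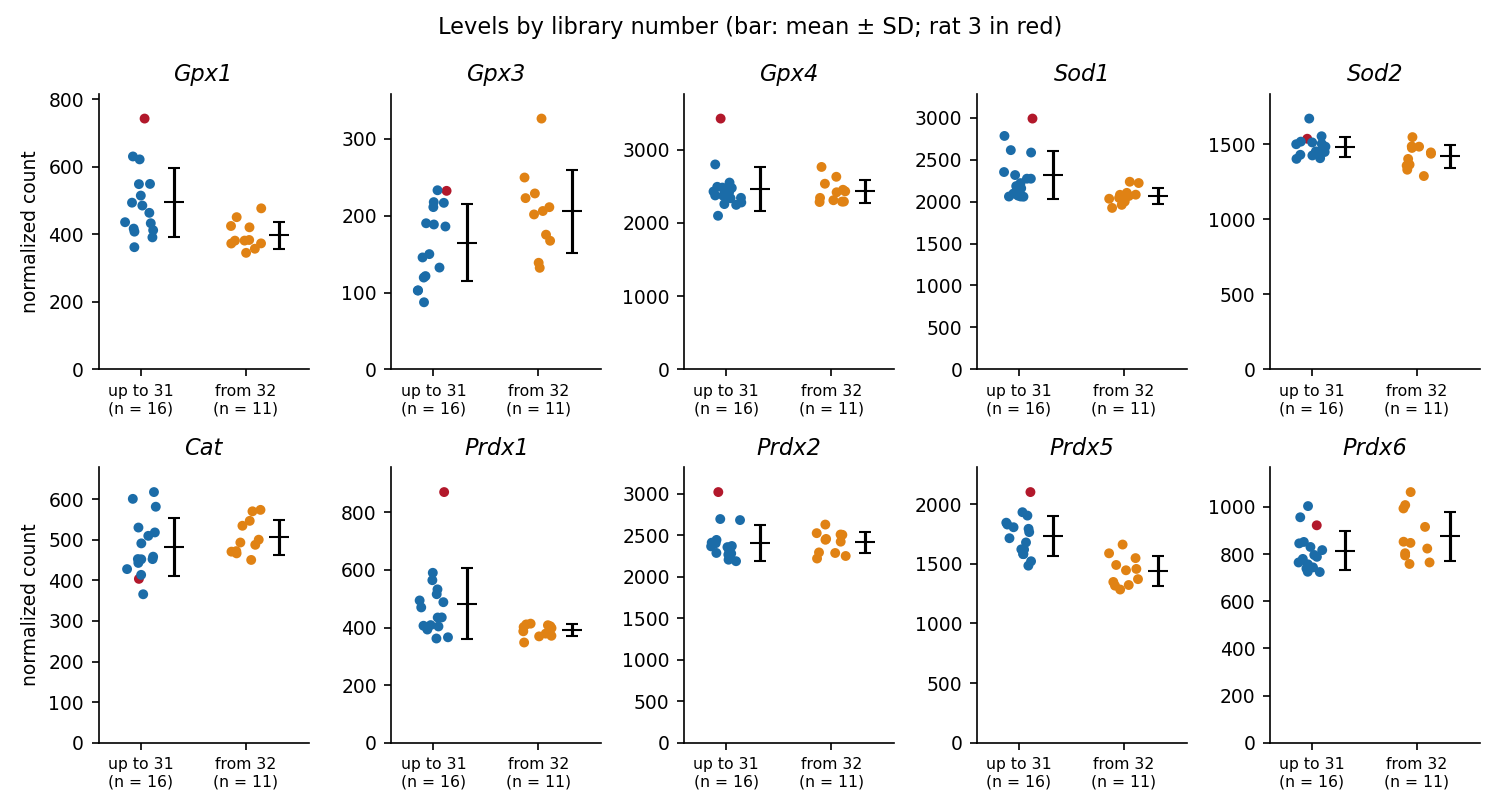
Normalized counts (y axes, each from 0) of the 10 genes in the 16 rats with libraries numbered up to 31 and the 11 from 32, 1 point per rat with rat 3 in red, and bars for mean ± SD. Gpx1, Sod1, Prdx1 and Prdx5 are lower from 32 and their rats overlap, while Gpx4 and Prdx2 have nearly equal means.

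None of the other 9 members followed Gpx3, in any of the fits made (0.0354% of all genes did with every rat in). The largest changes per SD of Gpx3 were those of Prdx6 (0.038 ± 0.031 SE, adjusted p = 0.594) and Prdx1 (0.032 ± 0.056, adjusted p = 0.843), and Prdx2 changed by 0.00096 ± 0.022. With the number range as a further term the largest was that of Prdx1 (0.093 ± 0.049, adjusted p = 0.489), and the values of Gpx1 (-0.012 without and 0.048 with the term), Sod1 (-0.015 and 0.018) and Prdx5 (-0.026 and 0.029) changed sign, none of them called. Correlations with the 9 ran from rho -0.17 for Sod2 (permutation p = 0.391, 0.681 after adjustment over 21 relations) to 0.22 for Gpx4 (permutation p = 0.271, adjusted 0.672). Pearson's r was -0.30 and 0.17 for these (permutation p = 0.126 and 0.412). Leaving out rats 18 and 20, which lay farthest from the median of Gpx3 on the log2 scale, gave r -0.024 and 0.15. Without rats 12 and 20, rho was 0.0069 with Sod2 and 0.11 with Gpx4, and the lowest was -0.23 with Gpx1. Without rat 3, rho with the 9 ran from -0.25 for Sod2 to 0.17 for Prdx6, with -0.14 for Sod1 and 0.16 for Gpx4. Within the libraries from 32, rho with Sod1 was 0.58 and with Cat -0.55, against -0.03 for both up to 31 (two-sided permutation p = 0.0647 and 0.0872 from 32). No gene had a slope on Gpx3 that differed between the number ranges in edgeR's interaction test (0 of 11291 genes called, 383 at an unadjusted p under 0.05), and the smallest p of a member was 0.173.

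What followed Gpx3 were 4 genes, 0.0354% of those tested. Glb1 (gene ID 316033), the lysosomal beta-galactosidase, rose by 0.26 ± 0.043 (SE) on the log2 scale per SD of Gpx3 (edgeR adjusted p = 0.0147, rho 0.72). Smpd4, a neutral sphingomyelinase, rose by 0.16 ± 0.028 (adjusted p = 0.0149, rho 0.66). Sertm1, a small membrane protein, fell by 0.13 ± 0.022 (adjusted p = 0.0147, rho -0.77), and Phospho2, a phosphatase, fell by 0.15 ± 0.028 (adjusted p = 0.0149, rho -0.66). Glb1 was itself at 161 ± 35.6 normalized counts (SD, n = 27). With the number range as a further term 5 genes followed Gpx3 (0.0443% of all genes), of which 1 rose and 4 fell. Glb1 (0.23 ± 0.044, adjusted p = 0.0367), Sertm1 and Phospho2 were among them, Smpd4 was not (0.13 ± 0.027, adjusted p = 0.0898), and the others, named after their values were seen, were Slco1a4 and Adgrl4, an adhesion receptor of endothelial cells (adjusted p = 0.0353 for both).

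The count of 4 changed with single rats. It was 24 without rat 3 (0.213% of genes), and the 4 were among these 24. It was 0 without rat 20, whose Gpx3 was 103, and 0 without rats 12 and 20, while DESeq2's Wald test called 84 (0.744%). Without rats 12 and 20 the rho of the 4 kept their signs, at 0.66 for Glb1, 0.59 for Smpd4, -0.72 for Sertm1 and -0.59 for Phospho2. The 4 had been chosen over all rats, so these values describe them and are not a test. Among the 24 were Dgcr6, Slco1a4 and Lratd1, which are also among the nearest genes below, and the structural RNAs Rn18s and Rn7sl1, which fell by 0.89 ± 0.20 (SE) and 1.33 ± 0.29 per SD of Gpx3 (edgeR adjusted p = 0.0498 and 0.0464). The part of ribosomal RNA in the counts of these 2 rats was not tested.

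By rank alone, the genes most like Gpx3 were Glb1, Dgcr6 (rho 0.70), Smpd4, Pdlim4 (0.65), a cytoskeletal adaptor, and Wscd1 (0.65), and those most opposed were Sertm1, Tmem164 (-0.70), Slco1a4 (-0.70), a transporter of organic anions at the blood-brain barrier, Urb2 (-0.69) and Lratd1 (-0.69). These 10 were chosen as extremes over 27 rats among genes whose mean normalized count reached 50, so the values describe them. Each kept its sign within both number ranges, the weakest being Wscd1 with 0.31 from 32. Without rat 3 all 10 also kept their sign, from 0.62 for Wscd1 to 0.76 for Smpd4 and from -0.69 for Tmem164 to -0.75 for Sertm1. Over all 11291 genes the median absolute rho with Gpx3 was 0.17.

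The same search was made for the other members. The nearest gene was Sem1, a proteasome subunit, for Prdx5 (rho 0.93), Anxa1, an annexin induced by glucocorticoids, for Gpx1 (0.92), and Bex2 for Sod1 (0.89). It was Rpl22, a ribosomal protein, for Prdx1 (0.87), Ypel3 for Gpx4 (0.86) and Rabac1 for Prdx2 (0.86). For the other genes outside the pairs it was Fbxo33 for Sod2 (0.74), Hsd17b11 for Prdx6 (0.69) and the matrix protein gene Tnc for Cat (0.65). Without rat 3 the nearest gene was the same for Gpx1, Gpx4, Sod1, Prdx1, Prdx2, Prdx5 and Prdx6, with rho from 0.67 (Prdx6) to 0.92 (Prdx5), and it was Lmbr1 for Sod2 (0.73), Stard10 for Cat (0.68) and Smpd4 for Gpx3.

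No cell type score followed Gpx3 by edgeR. The highest rho was that of oligodendrocytes, 0.38 (two-sided permutation p = 0.0505, 0.571 after adjustment over 21 relations), with r 0.37 (permutation p = 0.0609) that was 0.24 without rats 18 and 20, and with rho 0.41 up to 31 and 0.21 from 32. Without rat 3, rho was 0.31, level with that of red blood cells (0.31), and r was 0.32 (edgeR adjusted p of Gpx3 on the oligodendrocyte score 0.41 with and 0.685 without rat 3). All 8 oligodendrocyte markers had a positive rho with Gpx3 and 0 were called. The highest was Mog (0.48) and the lowest Cldn11 (0.25), and without rat 3 these were 0.43 and 0.18. Mbp was at 0.43, Mobp at 0.39, Mag at 0.38, Opalin at 0.36 and Cnp at 0.26. Mbp, the myelin basic protein gene, ran from 8109 normalized counts in rat 17 to 33372 in rat 3. The 8 markers summed to 18219 to 63504 normalized counts up to 31 and to 18282 to 36544 from 32. The lowest rho was that of inhibitory neurons, -0.37 (permutation p = 0.0544), at -0.64 up to 31 and 0.17 from 32. Without rats 12 and 20 it was -0.22, and the lowest were then endothelial (-0.31) and mural (-0.31) cells. Without rat 3 it was -0.28, and the lowest was endothelial cells (-0.41). In the 11 libraries from 32, Gpx3 had rho -0.76 with oligodendrocyte precursors, -0.65 with mural and -0.65 with endothelial cells (permutation p = 0.00909, 0.0334 and 0.0366, unadjusted), against -0.11, 0.015 and -0.0029 up to 31. These within-range differences were not tested. The choroid plexus and ependyma score rested on 1 marker, Foxj1, and Folr1 was listed at 0.

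**Figure D5:**
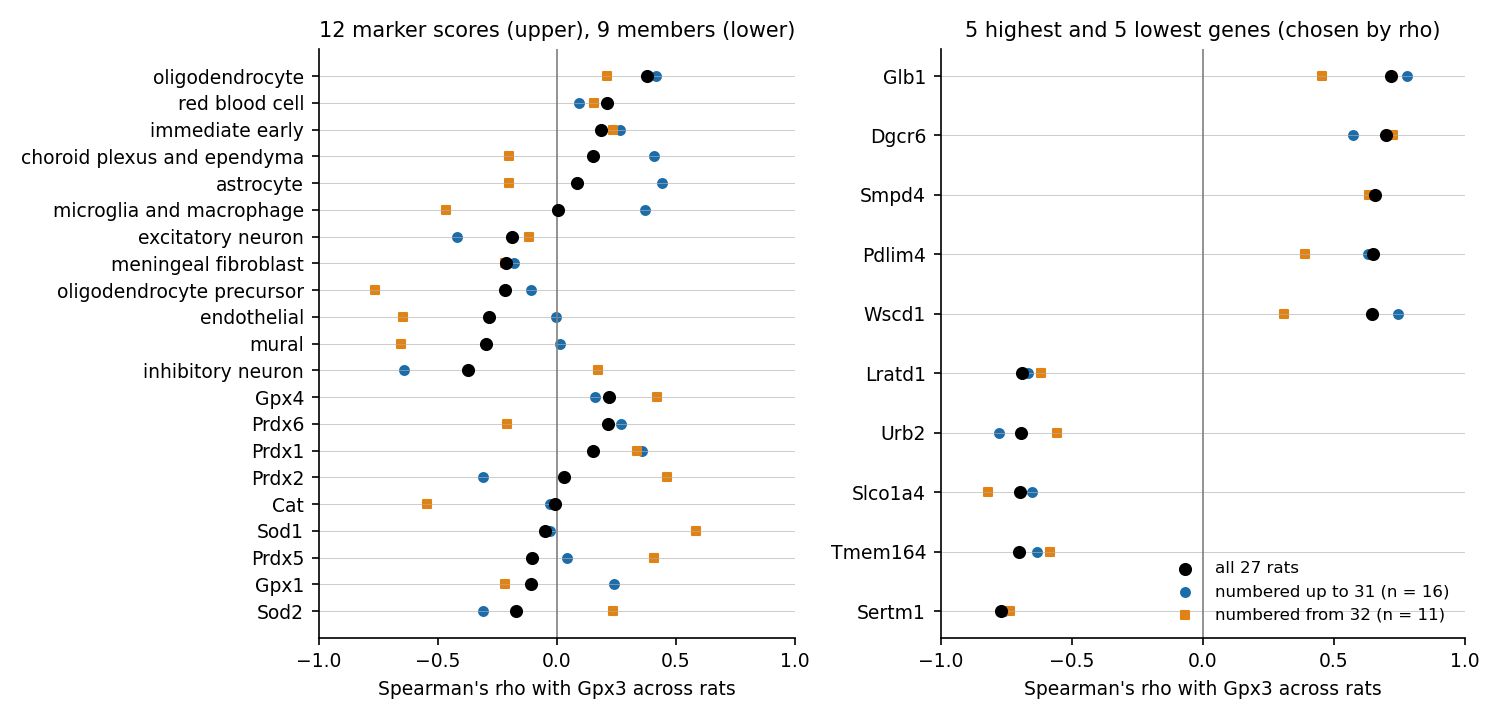
Spearman's rho with Gpx3 (x axes) over 27 rats (black), in the 16 libraries up to 31 (blue circles) and in the 11 from 32 (orange squares), for 12 marker scores and the other 9 members (left) and for the 5 highest and 5 lowest genes (right). The members lie between -0.17 and 0.22 over all rats, the oligodendrocyte score is the highest at 0.38, and the 10 genes at right, chosen by rho, keep their sign in both ranges.

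The 12 other genes on both LD lists of the study had a median rho of 0.50 with Gpx3, against -0.012 over all genes. Of the 12, 1 was called, Glb1, beside 0.0354% of all genes. As the study chose these genes on these samples for a shared relation to 1 test, neither value is independent evidence. Positive values ran from 0.72 for Glb1, 0.70 for Dgcr6, 0.63 for Blcap, 0.56 for Naa80 (listed as Nat6), 0.55 for Hapln2, 0.51 for Adamts4, 0.49 for Col5a3 and 0.48 for Shbg to 0.43 for Orai1. The negative ones were Sbno1 (-0.67), Rnf145 (-0.47) and Pla2g7 (-0.47). Up to 31 the positive ones ran from 0.50 (Shbg) to 0.78 (Glb1) and the negative ones from -0.31 (Pla2g7) to -0.79 (Sbno1). From 32 rho was 0.73 for Dgcr6, 0.45 for Glb1, 0.41 for Blcap, 0.26 for Hapln2, 0.16 for Col5a3 and 0.14 for Adamts4. It was 0.045 for Orai1, 0.018 for Shbg, 0.0091 for Naa80, 0.082 for Rnf145, and -0.26 for Sbno1 and Pla2g7. The interaction test of edgeR called none of them. Without rat 3, Glb1 and Dgcr6 were called, beside 0.213% of all genes.

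Other genes of the pathway were taken from 5 lists of 60 genes, of which 56 were tested. Gpx2, Gpx5, Gpx6 and Lrp8, with at most 6 reads in any rat, were not. None followed Gpx3, beside 0.0354% of all genes, and none did without rat 3, beside 0.213%. With shares this low, no call among the 56 does not set them apart from other genes. The median change per SD of Gpx3 on the log2 scale lay between -0.0083 (glutathione) and 0.034 (superoxide and oxidant response) in the 5 lists, against 0.0011 over all genes. In the glutathione list the smallest p values were those of Gsr, glutathione reductase (rho -0.33, adjusted p = 0.309), and Glrx3, a glutaredoxin (rho -0.18, adjusted p = 0.518). In the thioredoxin list they were those of Txnrd2, the mitochondrial thioredoxin reductase (rho -0.54, adjusted p = 0.261), and Srxn1, sulfiredoxin, which repairs overoxidized peroxiredoxins (rho -0.53, adjusted p = 0.274). Among superoxide and oxidant response genes they were those of the metallothioneins Mt2A (rho 0.27, adjusted p = 0.364) and Mt1 (rho 0.054, adjusted p = 0.634). Gpx3 is a selenoprotein, and in the selenoprotein list Selenow had rho 0.58 (adjusted p = 0.187) and Pstk, a kinase of selenocysteine synthesis, 0.33 (adjusted p = 0.385). In the peroxisome list Pex19 had -0.49 (adjusted p = 0.306) and Pex5 0.31 (adjusted p = 0.568). Lrp8, a receptor for selenoprotein P, was listed at 0 counts in every rat.

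With Sod1, 23 of the 56 genes rose and 2 fell (edgeR), beside 18.3% and 17.3% of all genes, and the median change was 0.050 on the log2 scale per SD of Sod1 against -0.0017 over all genes. By list, 4 of 12 glutathione genes rose, 3 of 12 thioredoxin genes, 8 of 11 superoxide and oxidant response genes, 7 of 13 selenoprotein genes and 1 of 8 peroxisome genes. Without rat 3, 11 rose and 1 fell, beside 10.5% and 8.83%, and the counts of genes that rose were 4 glutathione, 3 thioredoxin, 2 oxidant response (Park7 and Mt3), 2 selenoprotein and 0 peroxisome genes. The following genes were named after their values were seen. Txn1, thioredoxin, rose by 0.19 on the log2 scale per SD and by 0.15 without rat 3 (adjusted p = 1.42e-06 and 0.000198), Selenok, a selenoprotein of the endoplasmic reticulum, by 0.13 and 0.080 (3.99e-07 and 0.000198), and Glrx3 by 0.13 and 0.11 (1.66e-06 and 0.00013). Mt3, the metallothionein of brain, rose by 0.16 and by 0.10 without rat 3 (3.38e-06 and 0.00137). Hmox1, heme oxygenase, a classical Nfe2l2 target, rose by 0.24 (adjusted p = 0.00706), and without rat 3 its change was 0.15 (adjusted p = 0.166). Sesn2, a sestrin, fell by 0.10 (adjusted p = 0.0455), and without rat 3 its change was -0.072 (adjusted p = 0.212).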

How the data were processed

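Polyadenylated RNA of the mPFC was sequenced as single reads in 27 rats, 1 library each. The authors deposited raw counts, the reads counted per NCBI gene ID, without normalization. Per the submitters' processing notes the tools included Trimmomatic, STAR and HTSeq. Versions, genome build and strandedness are not given in the sources used here. The methods and the sample labels name different library kits and section depths, and whether all libraries were made alike was not tested. The table had no other columns.

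Gene IDs were named from the RefSeq list of GRCr8. Normalized counts used DESeq2 1.42.0 size factors (median of ratios), the package the study used, and log values are log2(normalized count + 1). The main test was the quasi-likelihood test of edgeR 4.0.16 after filterByExpr and TMM over all 27 libraries, with 1 covariate, which was a member, a marker score, the library-number range or the first principal component (all but the range as z scores). Follows, rose, fell and called mean a Benjamini-Hochberg adjusted p under 0.05 over all genes tested. Spread was tested by a chi-square dispersion test where the mean count reached 10. Correlations of Gpx3 with members and scores had two-sided tests of 100000 permutations. Every sample is 1 rat by its labels, and depth sets a floor of 3 counts per library, for counting error only, since there were no molecular identifiers.

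In simulated counts of 11292 genes for the fit on Gpx3, 100 of 100 genes made to follow it with a log2 change of 0.5 per SD and 74 of 100 with 0.2 were recovered, with 8 false calls. Whether these rates hold for the measured counts was not tested. There Sertm1, at -0.13 ± 0.022 (SE) per SD of Gpx3, was called (edgeR adjusted p = 0.0147). Hapln2, at 0.34 ± 0.083, was not (adjusted p = 0.103). Members and lists were chosen with earlier results of these data known. Alternatives were DESeq2 offsets, no filter, DESeq2's Wald test, the library-number range as a term, a pseudocount of 0.1 and leaving out the 2 libraries highest in Rn18s. The principal component fits and terms, the interaction and leaving out each rat were chosen after seeing the data.

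Genes named are the 10 members, the 5 highest and 5 lowest by rho with Gpx3 and the 1 highest for each other member among named genes with a mean of at least 50, the 12 other genes of both LD lists, the markers of the score with the largest rho, and from each wider list the genes called with Gpx3 or, with under 2 called, the 2 with the smallest p. Other names were chosen after their values were seen. The values of 2 genes that the rule or the counts would name are not reported here. The software also included R 4.3.3, limma 3.58.1, Python 3.11.15, matplotlib 3.10.9, pandas 2.3.3, scipy 1.17.1 and numpy 2.4.6.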

Additional observations from a re-analysis of the deposited data

How the results depend on the processing

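The 0 other members that follow Gpx3, the 4 members lower in libraries from 32 and the 10 members with spread beyond counting kept their counts to within 1.5 times under every alternative run for them. The 4 genes that follow Gpx3 were 84 with DESeq2's Wald test, 0 without the 2 libraries highest in Rn18s, 31 with the first principal component as a term, and 0 (without rat 20) to 24 (without rat 3) when single rats were left out. The 14 member pairs were 0 with that component as a term, 1 without rat 3 with 2 components as terms, and 7 (without rat 3) to 15 when single rats were left out. The 8 relations of members with marker scores were 3 without rat 3, and the 6 members along the first component were 2, Gpx3 and Sod2, because the leading component of the other 26 rats was the second of all 27 (absolute rho 0.997). Along the second component of these 26 rats there were again 6. The cause of the other changes was not tested. The 27 rats form 1 group. No paired analysis was possible because there is no second group to pair. Transcript length was not used, so levels of different genes cannot be ranked. Changes too small to be recovered in the simulated counts would be missed here too, and whether larger ones were missed was not tested.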
